A study of Mus musculus with 12 samples.

Results

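Transcripts of 10 genes that mark neutrophils and their granules were followed through every library of the series: S100a8, S100a9, Mpo, Elane, Prtn3, Camp, Ngp, Ltf, Ly6g and Retnlg. They were taken from the table of read counts by gene symbol, each symbol stood on 1 row, and they are 10 of the 55335 genes listed. The measurements were strand-specific RNA-seq of bone-marrow-derived macrophages (BMDMs) and of whole livers from male mice, with n = 3 libraries per group. All mice carried loxP sites around part of the thyrotropin receptor gene Tshr (Tshr f/f), and the Tshr MKO mice also carried Cre under the Lyz2 promoter (Tshr f/f,Lyz2-Cre), which is active in monocytes, macrophages and neutrophils, so the neutrophils studied here belong to the targeted lineage. BMDMs of both genotypes came from mice that the labels put at 6 weeks (the study's general method for BMDMs gives a range that starts there), grew for 7 days with M-CSF at 10 ng/mL and received TSH at 1 ng/mL for 24 h. No BMDM library without TSH was analysed here. Livers of both genotypes came from mice that received high-fat food from the age of 6 weeks, for 9 weeks, and were then fasted for 8 h and given insulin at 1.5 U/kg for 5 min. The genotypes are called f/f and MKO from here on.

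Neutrophils build their granules in sequence as they mature in the bone marrow. Primary (azurophil) granules are filled at the promyelocyte stage with myeloperoxidase (Mpo) and with the serine proteases neutrophil elastase (Elane) and proteinase 3 (Prtn3). Secondary (specific) granules follow at the myelocyte stage with the antimicrobial cathelicidin (Camp), neutrophilic granule protein (Ngp) and the iron-binding lactoferrin (Ltf). S100a8 and S100a9 encode the 2 subunits of calprotectin, a cytosolic calcium- and zinc-binding complex that neutrophils and monocytes hold in large amounts. Ly6g encodes a surface protein by which mouse neutrophils are sorted, and Retnlg encodes a resistin-like peptide of mature neutrophils. Because transcripts of primary granules are made early and largely shut off later, RNA of these genes marks immature cells more than circulating ones. M-CSF drives bone marrow precursors towards macrophages, so neutrophils and their precursors are not the intended product of a BMDM culture.

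The genes lie in a few groups on the genome (GRCm38). S100a8 (chr3:90668978-90670035, plus strand) and S100a9 (chr3:90692632-90695721, minus strand) are 22596 bases apart. Prtn3 (chr10:79874476-79883174) and Elane (chr10:79886247-79888215) follow each other on the plus strand at a distance of 3072 bases. Camp, Ngp and Ltf are all on chromosome 9, and Mpo, Ly6g and Retnlg are on chromosomes 11, 15 and 16. Mpo and Prtn3 each overlap a gene on the other strand (Gm11505 and Plppr3).

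The 250 bases before the RefSeq start of each gene (GRCm38.p6) were searched on both strands for AGGAAGT, a core that fits the myeloid factor PU.1, and for TTGCNNAA, a core that fits the C/EBP factors, which act at the promyelocyte and myelocyte stages. AGGAAGT stood before all 3 primary granule genes, S100a8 and Ly6g, and in 7.7% of 32851 promoters searched. TTGCNNAA stood before Ngp, Ltf, S100a9, Ly6g and Retnlg, and in 9.6% of promoters. TATAAA, searched on the gene's strand alone, stood before S100a8 and Ly6g and in 7.6% of promoters. Camp had none of the 3. These matches describe letters and do not show a bound site. The stretches of the granule genes are printed because primary and secondary granule genes are the groups whose levels are set side by side below. Capitals mark the match (on the reverse strand in Ltf), no stretch holds both patterns, and each stretch lies outside annotated exons (within the Prtn3 gene for Prtn3).
Mpo (chr11:87793534-87793580, plus strand): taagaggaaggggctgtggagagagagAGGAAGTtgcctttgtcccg
Elane (chr10:79886147-79886246, plus strand): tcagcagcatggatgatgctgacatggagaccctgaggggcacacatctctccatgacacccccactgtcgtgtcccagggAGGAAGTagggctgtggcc
Prtn3 (chr10:79879514-79879613, plus strand): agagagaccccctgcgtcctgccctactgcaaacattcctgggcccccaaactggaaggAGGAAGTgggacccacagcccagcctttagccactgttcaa
Ngp (chr9:110419624-110419723, plus strand): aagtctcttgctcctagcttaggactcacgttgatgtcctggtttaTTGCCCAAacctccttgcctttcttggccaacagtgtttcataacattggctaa
Ltf (chr9:111019171-111019270, plus strand): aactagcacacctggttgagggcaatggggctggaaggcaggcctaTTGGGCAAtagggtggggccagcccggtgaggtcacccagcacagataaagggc

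In the study's own material, the counts of the liver libraries appear in 1 place under the opposite genotype heading, so the words f/f and MKO for livers, and every direction, follow the library labels. Tshr gives no check of them, since it had 0, 0 and 2 counts in f/f BMDMs, 0, 0 and 5 in MKO BMDMs and 0 in all 6 livers. Libraries held 28962878 to 40954211 counts. The scaling factor of f/f BMDM replicate 3 was 0.738, against 0.993 to 1.11 in the other 5 BMDM libraries. Lyz2, the gene of myeloid lysozyme whose promoter drives Cre, had 56 counts in the liver of MKO replicate 1 and 818 to 4473 in the other 5 livers. The macrophage genes Adgre1 and Csf1r had 40011 to 55561 and 40390 to 107329 counts in BMDMs, where the hepatocyte genes Alb, Ttr and Cyp2e1 were at 0. Levels below are in CPM, that is, counts relative to the library total multiplied by its TMM factor (a between-library scaling factor set within the tissue), unless another scale is named.

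**Figure D1:**
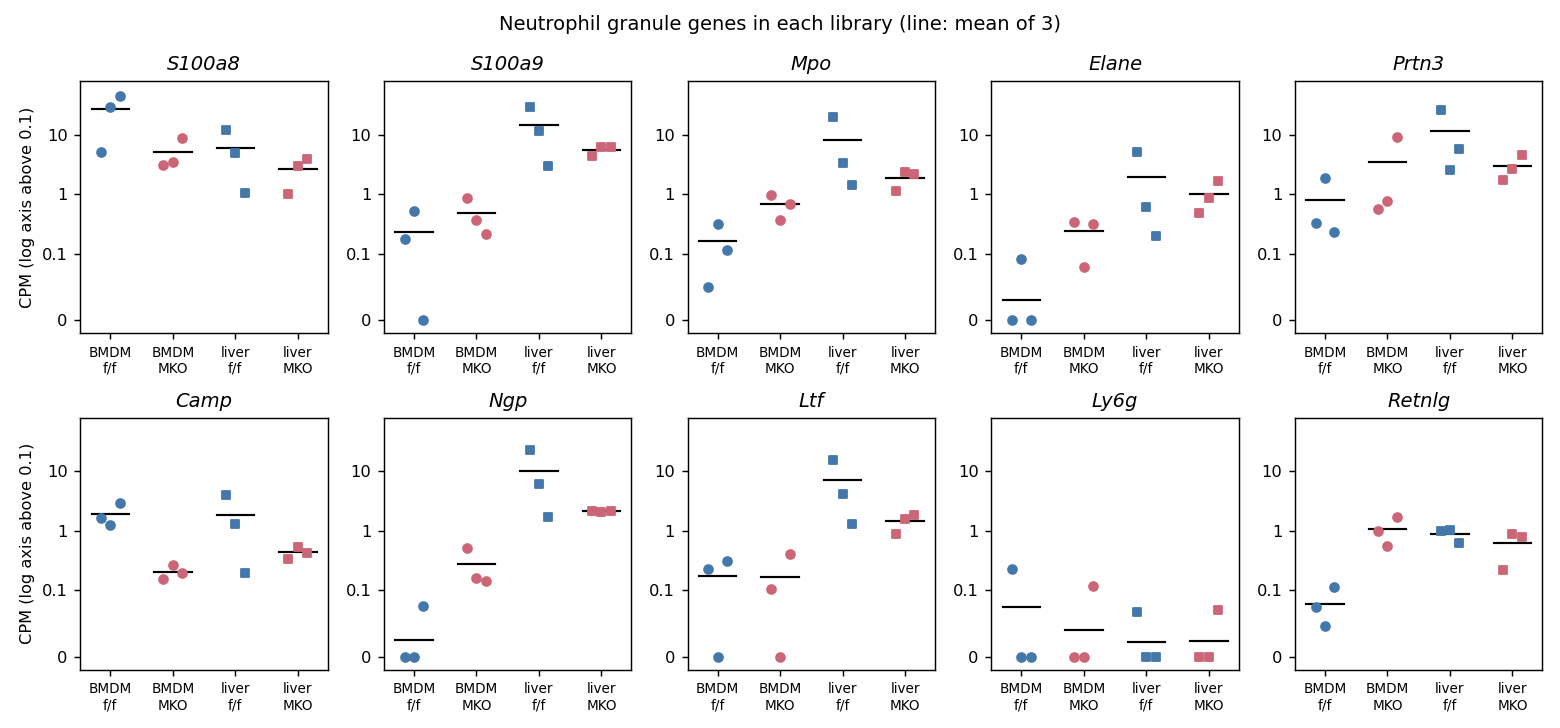
Level of each gene (CPM, log axis above 0.1 and linear below) in each of the 12 libraries, with circles for BMDMs, squares for livers, blue for f/f, red for MKO and a line at the mean of 3. In BMDMs Camp sat lower and Retnlg and Mpo sat higher in all 3 MKO libraries than in any f/f library, whereas in livers the 2 genotypes overlapped for every gene.

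In livers, the genes of both granule types and calprotectin were most abundant in a single library. The liver of f/f replicate 1 held 3994 counts over the 10 genes, and the other 5 livers held 441 to 1301. As a summed level this was 135 CPM, followed by 35.8 CPM in f/f replicate 2 and 15.2 CPM in f/f replicate 3. The MKO livers had 12.3, 20.1 and 23.9 CPM, so 1 f/f liver lay inside their range. In a piece of whole liver, fewer neutrophils and less RNA per neutrophil cannot be told apart.

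Among the primary granule genes, Mpo had 583, 124 and 43 counts in f/f livers and 41, 98 and 61 in MKO livers. This was 8.19 ± 10.0 against 1.88 ± 0.641 CPM (mean ± SD, n = 3). Prtn3 had 767, 94 and 172 counts against 61, 111 and 131, and Elane 150, 22 and 6 counts against 17, 37 and 47. The f/f replicate 1 was the highest of the 6 livers for each of these 3 genes, and f/f replicate 3 had the fewest Elane counts of all. The fitted log2 changes (MKO over f/f) were -2.12 (SE 0.94) for Mpo, -1.93 (SE 0.87) for Prtn3 and -0.97 (SE 1.12) for Elane, with edgeR adjusted p of 0.50, 0.50 and 0.816.

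Among the secondary granule genes, Ngp had 668, 222 and 51 counts in f/f livers and 78, 87 and 61 in MKO livers. Ltf had 461, 154 and 40 counts against 32, 66 and 53, or 7.05 ± 7.54 against 1.45 ± 0.502 CPM. Camp had 120, 47 and 6 counts against 12, 23 and 12. In each of the 3 genes the order of the f/f livers was replicate 1, replicate 2, replicate 3, and replicate 3 fell inside or below the MKO range. Ngp was lower in MKO livers by 2.24 on the log2 scale (SE 0.85, unadjusted p = 0.0351, edgeR adjusted p = 0.437), Ltf by 2.29 (SE 0.86, unadjusted p = 0.0347, edgeR adjusted p = 0.437) and Camp by 2.07 (SE 0.94, edgeR adjusted p = 0.50).

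Of the calprotectin genes, S100a9 had 861, 421 and 90 counts in f/f livers and 156, 260 and 177 in MKO livers, and S100a8 had 353, 179 and 32 counts against 36, 126 and 109. Their log2 changes were -1.38 (SE 0.72) and -1.19 (SE 0.85), with edgeR adjusted p of 0.554 and 0.682. Among the mature markers Retnlg had 29, 38 and 19 counts against 8, 38 and 22, and was not highest in f/f replicate 1, with a log2 change of -0.48 (SE 0.56, edgeR adjusted p = 0.816). Ly6g was detected in 2 of the 6 livers, with 2 counts in each, and a count of 0 in a liver allows a level of up to 0.0714 to 0.106 CPM, a limit that covers counting error only.

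In liver 9 of the 10 genes had enough counts to be tested (edgeR's filter), and all 9 log2 changes were negative, with a median of -1.93 against -0.01 over the 15062 genes tested. No gene of the list had an adjusted p under 0.05 in edgeR, nor did any of all genes tested (0%), and DESeq2 called 0 of the list and 1.68% of all genes. At an unadjusted p under 0.05, 2 of the 9 were lower (Ngp and Ltf) and 0 higher, against 5.18% of all genes lower and 5.27% higher. The groups overlapped in all 10 genes, whereas 7.73% of genes tested were lower and 9.61% higher in MKO livers without overlap. The differences were smaller without 1 library. With f/f replicate 1 left out, the median of the 9 changes was -0.41, Elane was at 1.28 and 0 genes had an unadjusted p under 0.05. Without MKO replicate 1, the liver with few Lyz2 counts, the median was -1.65 and 0 genes had an unadjusted p under 0.05.

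**Figure D2:**
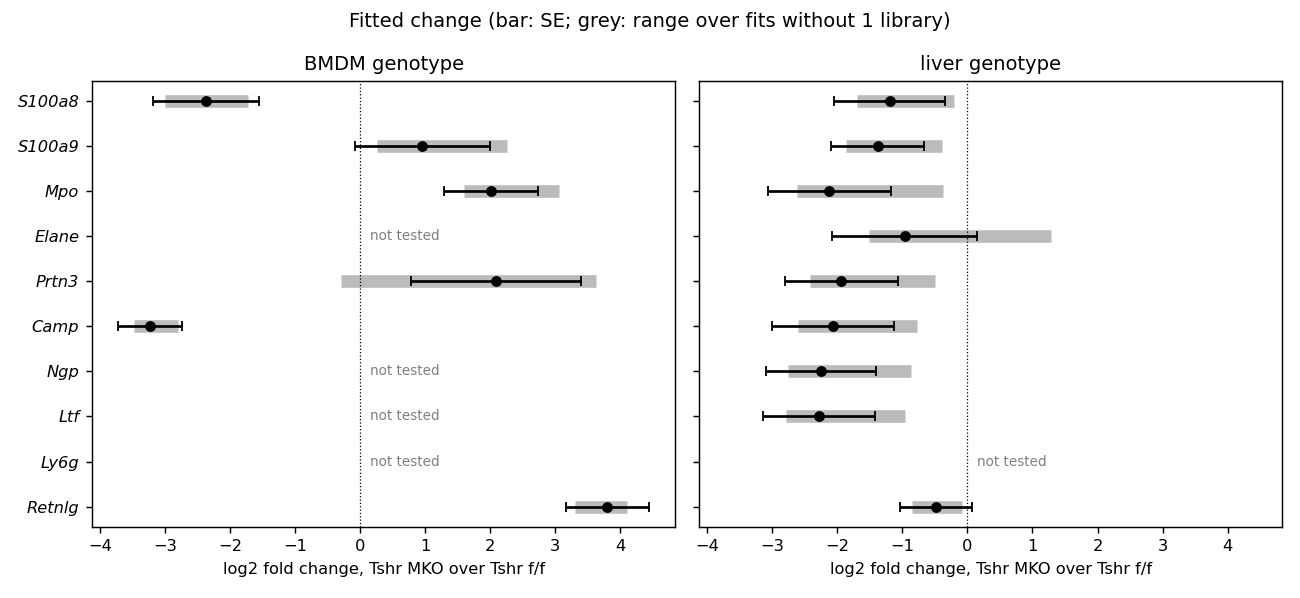
Fitted log2 fold change of each gene (MKO over f/f) in BMDMs and in livers, with bars for the SE and a grey band for the range over the 6 fits that each leave out 1 library. In livers all 9 tested values lie below 0 and the upper end of most bands is the fit without f/f replicate 1, whereas in BMDMs Camp (-3.23) and Retnlg (3.80) lie on opposite sides of 0.

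Markers of other blood cells were summed in the same livers. In f/f replicate 1 the 5 macrophage genes (Adgre1, Csf1r, Cd68, Mertk, Fcgr1) summed to 89.3 CPM, against 83.0 to 240 CPM in the other 5 livers. The 4 genes of resident macrophages summed to 138 CPM there and to 112 to 358 CPM elsewhere, and the 6 erythroid genes to 156 CPM, the lowest of the 6 livers, against 218 to 405 CPM. The 4 monocyte genes were at 15.9 CPM, second to the 20.8 CPM of f/f replicate 2. Over the groups the monocyte sums did not overlap, at 10.7 to 20.8 CPM in f/f and 8.70 to 10.6 CPM in MKO livers. The gap was narrow, between 10.71 CPM (323 counts, f/f replicate 3) and 10.64 CPM (447 counts, MKO replicate 2). Of all genes tested, 7.73% were lower in MKO livers without overlap. Ccr2 was lower in MKO at an unadjusted p under 0.05 (log2 change -1.39), as were 5.18% of all genes tested. The neutrophil sums did overlap, with f/f replicate 3 at 15.2 CPM inside the MKO range of 12.3 to 23.9 CPM. None of the monocyte, macrophage, resident macrophage or erythroid markers is at 0 in liver, and their part in the neutrophil values was not tested.

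**Figure D3:**
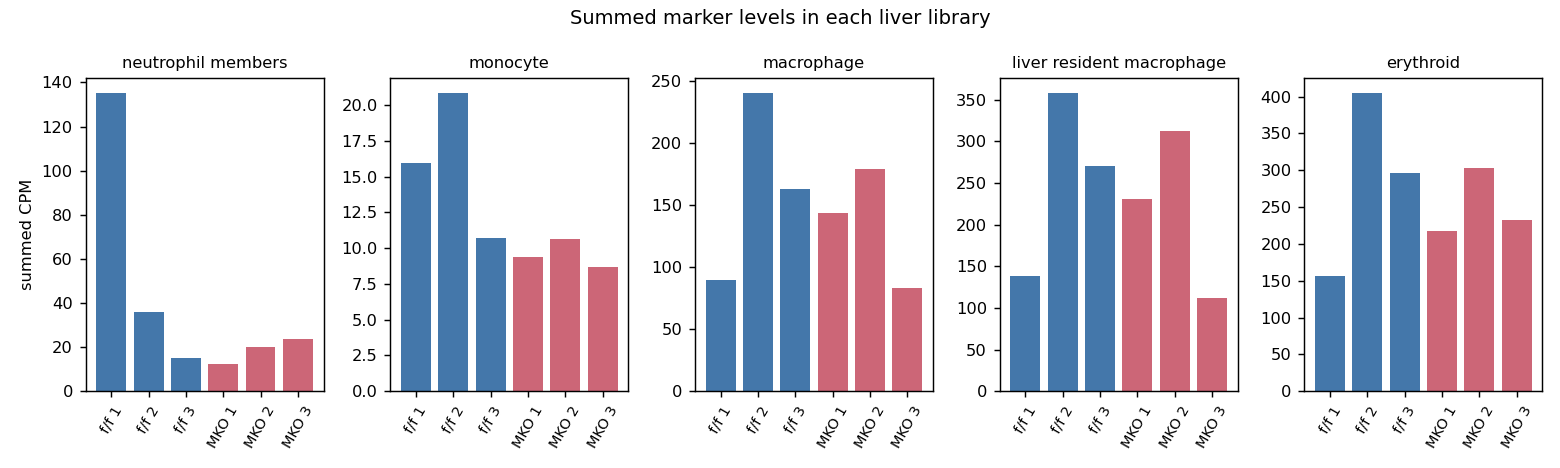
Summed level (CPM) of the 10 neutrophil genes and of 4 marker lists in each of the 6 livers, blue for f/f and red for MKO as labelled. The neutrophil sum is highest in f/f replicate 1 (135 CPM), which has the lowest erythroid sum (156 CPM).

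The genes whose profile over the 6 livers came nearest to the median of the 9 tested genes were F13a1, Ly6c2, Gm3571, Ighv1-31 and Tnfaip3. F13a1, which encodes the A subunit of coagulation factor XIII, differed from that median by 0.262 on average on the log2 CPM scale, less than 5 of the 9 genes themselves did. Ly6c2, a marker of inflammatory monocytes, differed by 0.367. Mpo (0.155), Ltf (0.184) and S100a9 (0.214) lay closest, and Elane (0.637), Prtn3 (0.619) and Retnlg (0.702) farthest.

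In BMDMs the 10 genes did not move as a group. S100a8 had the most counts in 5 of the 6 libraries (Prtn3 in MKO replicate 3), Camp was lower and Retnlg, Mpo and Ngp were higher in all 3 MKO libraries than in any f/f library, and Ly6g, Elane and Ltf were near the limit of detection. In the edgeR fit of the BMDM libraries Camp, Retnlg and Mpo did not pass an adjusted p of 0.05, and Ngp was not tested. Camp had 65, 55 and 78 counts in f/f BMDMs and 6, 10 and 8 in MKO BMDMs, or 1.96 ± 0.913 against 0.205 ± 0.0561 CPM (mean ± SD, n = 3). The groups did not overlap. Camp was lower in MKO by 3.23 on the log2 scale (SE 0.48, unadjusted p = 0.000413, edgeR adjusted p = 0.218), and DESeq2 gave an adjusted p of 7.68e-06, with a range over all alternatives of 7.68e-06 to 0.587.

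The other secondary granule genes did not follow Camp. Ngp had 0, 0 and 2 counts in f/f BMDMs and 20, 6 and 6 in MKO BMDMs, again without overlap but in the other direction. The ratio of its summed levels was 14.9 (95% counting interval 3.81 to 129), and it did not pass the filter for the edgeR test. Ltf had 9, 0 and 8 counts against 4, 0 and 17, with groups that overlapped.

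Retnlg had 3, 2 and 3 counts in f/f BMDMs and 38, 21 and 71 in MKO BMDMs, or 0.0787 ± 0.0348 against 1.09 ± 0.581 CPM. It was higher in MKO by 3.80 on the log2 scale (SE 0.63, unadjusted p = 0.000767, edgeR adjusted p = 0.218). Its adjusted p was 0.000283 in DESeq2 and 0.0413 with all 12 libraries in 1 edgeR fit, with a range over all alternatives of 0.000283 to 0.587. In the edgeR fits that left out 1 library it was 0.0889 or above. The mature marker Ly6g had 9 counts in 1 f/f library, 5 in 1 MKO library and 0 in the other 4 BMDM libraries, so it did not follow Retnlg.

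Of the primary granule genes, Mpo had 2, 14 and 3 counts in f/f BMDMs and 37, 14 and 29 in MKO BMDMs. As levels these groups did not overlap, at 0.0502 to 0.320 against 0.373 to 0.965 CPM, and the log2 change was 2.01 (SE 0.73, unadjusted p = 0.0308, edgeR adjusted p = 0.257). Prtn3 had 13, 82 and 6 counts against 22, 29 and 383, so that a single MKO library carried its difference. Its log2 change was 2.08 (SE 1.31, edgeR adjusted p = 0.421), and -0.29 without MKO replicate 3. Elane had 0, 4 and 0 counts against 13, 3 and 13, and did not pass the filter.

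S100a8 was at 5.22, 28.9 and 45.6 CPM in f/f BMDMs and at 3.08, 3.55 and 8.79 CPM in MKO BMDMs. At 26.6 ± 20.3 against 5.14 ± 3.17 CPM it was lower in MKO by 2.37 on the log2 scale (SE 0.81, unadjusted p = 0.0252, edgeR adjusted p = 0.242), with groups that overlapped at f/f replicate 1. For S100a8 DESeq2 gave an adjusted p of 0.0206, with a range over all alternatives of 0.0206 to 0.587. Its partner S100a9 had 7, 23 and 0 counts against 33, 14 and 9, a log2 change of 0.96 (SE 1.04, edgeR adjusted p = 0.632). The log2 changes of the 2 calprotectin genes had opposite signs, and S100a9 had 0 to 33 counts in every BMDM library.

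In BMDMs 6 of the 10 genes were tested, with a median log2 change of 1.48 against 0.01 over 15372 genes. When 1 library was left out this median ran from 0.51 (without MKO replicate 3) to 2.66 (without f/f replicate 2). Without MKO replicate 3, 3 of the genes were lower and 3 higher. With no library left out, the adjusted p was under 0.05 for 0 of the 6 genes and for 0% of all genes in edgeR. At an unadjusted p under 0.05, 2 were lower (S100a8, Camp) and 2 higher (Mpo, Retnlg), against 10.2% of all genes lower and 7.73% higher. Groups without overlap were lower in 1 of the 10 genes (Camp) and higher in 3 (Mpo, Retnlg and the untested Ngp), against 14% and 14.8% of genes tested. DESeq2 called S100a8, Camp and Retnlg, and 6.73% of all genes. Without f/f replicate 3, whose scaling factor stood apart, the log2 changes were -2.80 for Camp, 4.10 for Retnlg, 1.85 for Mpo and -1.73 for S100a8. The 6 tested genes shared no profile. Each lay 0.584 to 1.82 from their median on the log2 CPM scale, and the 5 other genes nearest to that median (D130017N08Rik, Morn1, C130050O18Rik, Zfand4 and Tnfrsf26) were at 0.154 to 0.201.

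The shares of S100a8 and of Camp within pairs of genes were set side by side in BMDMs and livers. S100a8 took 96.7%, 98.2% and 100% of the counts of S100a8 and S100a9 together in f/f BMDMs and 78.1%, 90.5% and 97.6% in MKO BMDMs. In the 6 livers it took 18.8% to 38.1%, below every BMDM library. Camp took 97.5% to 100% of the counts of Camp and Ngp in f/f BMDMs, 23.1% to 62.5% in MKO BMDMs and 10.5% to 20.9% in livers. In the liver with the most counts over the 10 genes the shares were 29.1% for S100a8 (95% exact binomial interval 26.5% to 31.7%) and 15.2% for Camp (12.8% to 17.9%). In f/f replicate 2, with 1301 counts over the 10 genes, they were 29.8% and 17.5%. The lowest liver share of S100a8 was 18.8% (13.5% to 25.0%), in MKO replicate 1, and the highest 38.1% (32.5% to 44.0%), in MKO replicate 3. Shares within the primary granule genes overlapped between the tissues. Mpo took 69.0% to 100% of the counts of Mpo and Elane in BMDMs and 56.5% to 87.8% in livers, and Prtn3 took 62.9% to 100% of those of Prtn3 and Elane in BMDMs and 73.6% to 96.6% in livers. Camp took 32% to 100% of the counts of Camp and Ltf in BMDMs and 13.0% to 27.3% in livers. These intervals cover counting error only.

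**Figure D4:**
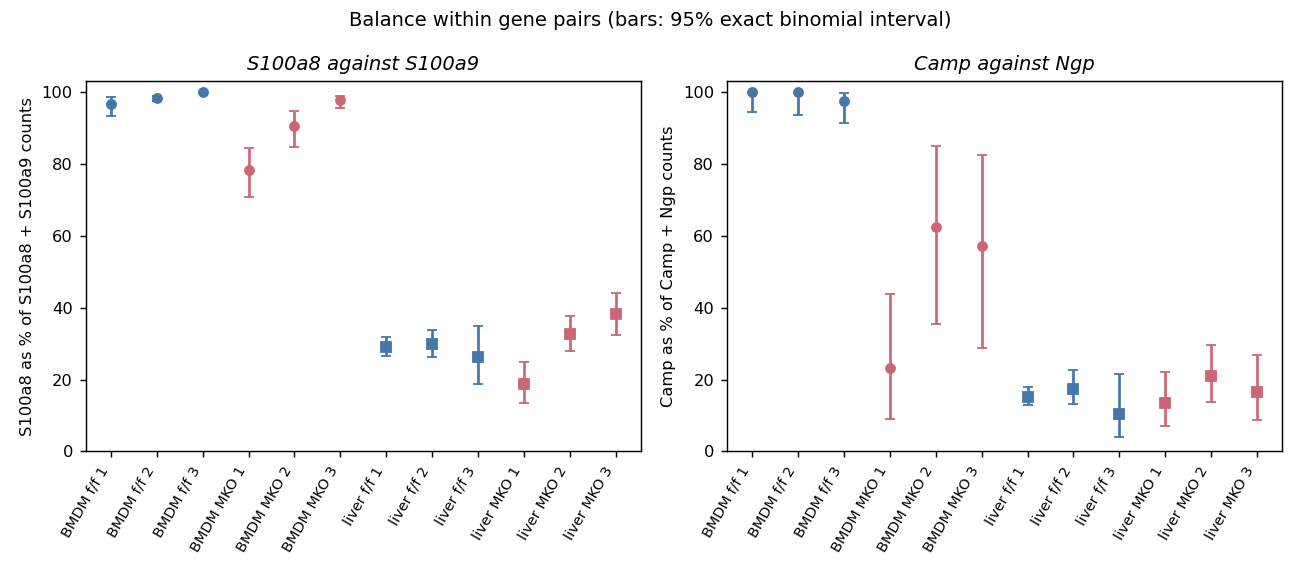
Share (percent) of S100a8 in the counts of S100a8 and S100a9 and of Camp in those of Camp and Ngp, in each library with its 95% exact binomial interval, blue for f/f and red for MKO. All BMDM libraries are at 78.1% or above for S100a8 and all livers at 38.1% or below.

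Set directly against livers of the same genotype, f/f BMDMs had less RNA of most of these genes. Tissue, culture, diet, TSH and insulin differ together in this comparison. With edgeR on all 12 libraries, 7 of the 9 genes tested were lower in f/f BMDMs than in f/f livers at an adjusted p under 0.05. Of all 17246 genes tested, 36.6% were lower and 32.7% higher at that limit. The log2 differences (BMDM over liver) were -6.69 for S100a9 (SE 1.04, adjusted p = 0.00019), -6.44 for Mpo (SE 1.08, adjusted p = 0.000328), -6.50 for Elane (SE 1.45, adjusted p = 0.00217) and -4.64 for Prtn3 (SE 1.33, adjusted p = 0.00961). Those of Ltf and Retnlg were -6.24 (SE 1.30, adjusted p = 0.00146) and -4.36 (SE 0.70, adjusted p = 0.000227). Ngp, with 2 counts in f/f BMDMs and 941 in f/f livers, was 992 times higher in liver (95% counting interval 274 to 8207, which covers counting error only). Without f/f liver replicate 1 all 7 stayed past the threshold and the log2 differences were nearer to 0, at -5.72 for S100a9, -4.72 for Mpo, -4.28 for Elane, -3.20 for Prtn3 (adjusted p = 0.0431), -8.28 for Ngp, -4.91 for Ltf and -4.30 for Retnlg. Without f/f BMDM replicate 2 Elane was at -9.56 and Prtn3 at -6.17, and without f/f BMDM replicate 3 Ngp was at -12.0.

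The other 2 genes tested did not pass. S100a8 had 2661 counts over the f/f BMDMs and 564 over the f/f livers, with a log2 difference of 1.28 (SE 0.89, adjusted p = 0.223). Camp had 198 and 173 counts, with a log2 difference of -0.79 (SE 0.76, adjusted p = 0.37). With library totals in place of TMM factors the median difference of all genes moved from -0.03 to 0.79, calls went from 5634 higher and 6310 lower to 8573 and 3895, S100a8 reached an adjusted p of 0.0467 (2.07) and Camp turned to 0.01. The other 7 genes stayed lower under both scalings.

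Between genes, levels per kilobase of exon gave another order in each tissue. In f/f livers S100a9 led with 27.9 ± 25.5 CPM per kb, followed by S100a8 (8.61 ± 7.95), Ngp (8.29 ± 9.01), Prtn3 (6.59 ± 7.32), Camp (2.44 ± 2.62), Mpo (2.39 ± 2.93), Ltf (2.04 ± 2.18), Elane (1.99 ± 2.75) and Retnlg (1.49 ± 0.378). From S100a9 to Elane, each gene differed from the next by less than its own SD, and Ly6g followed Retnlg at 0.0239 ± 0.0415, a step larger than both SDs. These SDs are between livers, and all genes were read in the same livers. S100a9 was above S100a8 in each f/f liver, at 55.8 against 17.2, 22.2 against 7.11 and 5.72 against 1.53 CPM per kb. In f/f BMDMs S100a8 had 38.3 ± 29.2 CPM per kb and Camp 2.59 ± 1.21, and the other 8 genes were at 0.468 or less.

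Whether the genotype difference itself differed between BMDMs and liver was tested as an interaction. No gene of the list passed an adjusted p of 0.05, and 0.0058% of 17246 genes did. At an unadjusted p under 0.05, 4 of the 9 genes tested were more positive in BMDMs (Mpo, Prtn3, Ngp and Retnlg) and 0 more negative, against 7.12% and 7.42% of all genes. The difference of log2 changes (BMDM minus liver) was 4.26 for Retnlg (SE 0.89, edgeR adjusted p = 0.129), 5.81 for Ngp (SE 1.64, edgeR adjusted p = 0.201) and 4.10 for Mpo (SE 1.31, edgeR adjusted p = 0.233). Ngp rests here on the 2 counts in f/f BMDMs. DESeq2 called these 3 genes, at adjusted p of 0.00128, 0.0066 and 0.0259, and 4.26% of all genes. The median difference of the 9 genes was 3.62 in edgeR, and 1.40 without f/f liver replicate 1. In that fit Mpo was at 2.38 and Ngp at 4.46. Prtn3 was at 4.02, and at 1.62 without MKO BMDM replicate 3.

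A further 43 neutrophil genes were listed. Ctsg (cathepsin G), Ms4a3 and Fcnb (ficolin B), which are made together with Mpo at the promyelocyte stage, had 73, 32 and 39 counts in f/f replicate 1, and 0 to 40, 0 to 7 and 0 to 6 in the other livers. They did not pass the filter in liver. In their list of 10 primary granule and promyelocyte genes, the 4 tested in liver had a median log2 change of 0.06. These were Ctsc (-0.11), Cebpa (-0.07), Cebpe (0.19) and Serpinb1a (0.86). In BMDMs Ms4a3, Prss57, Bpi, Olfm4, Itgb2l and Stfa2 were at 0 in all 6 libraries, of which Prss57, Bpi and Stfa2 were also at 0 in all 6 livers, and Olfm4 in 5 of them. Itgb2l had 2 to 17 counts in livers. Among BMDMs Ctsg had 0 counts in f/f and 14 in MKO, and the chemokine receptor gene Cxcr2 had 0 and 8. Csf3r, the receptor for G-CSF, by contrast had 7312 to 17689 counts in every BMDM library. In livers Cxcr2 was at 0.676 to 0.964 CPM in f/f and 0.251 to 1.27 CPM in MKO. Csf3r was at 4.30 to 12.8 CPM in f/f livers and 6.00 to 12.2 CPM in MKO livers, so both genes overlapped between the genotypes.

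In the secondary and tertiary granule list, 5 of 10 genes tested were lower in MKO livers at an unadjusted p under 0.05 and 0 higher, with a median log2 change of -0.99, against 5.18% of all genes lower and 5.27% higher. Without f/f replicate 1, or without MKO replicate 1, 1 gene of the list was lower, and over the 6 fits that left out 1 liver 1 to 6 were. Chil3, a chitinase-like protein, had 328, 113 and 52 counts in f/f livers and 19, 23 and 21 in MKO livers, and its groups did not overlap (log2 change -3.13, SE 0.73, unadjusted p = 0.0038, edgeR adjusted p = 0.334, DESeq2 adjusted p = 0.000642). Without f/f replicate 1 its log2 change was -2.00. Lcn2 (lipocalin 2) had 38005, 3322 and 6771 counts against 1550, 1179 and 3883, with a log2 change of -2.94, and -1.21 without f/f replicate 1. The others were Cd177 (-2.22), Mmp8 (-1.37) and the haptoglobin gene Hp (-1.17). Hepatocytes also make Lcn2 and Hp in the acute phase, and Hp was highest in f/f replicate 1, with 576749 counts against 158194 to 263165. In the list of primary granule and promyelocyte genes only the protease inhibitor gene Serpinb1a passed that limit, at a log2 change of 0.86, and in the list of mature neutrophil genes only G0s2 did, at -1.12. No gene of the NADPH oxidase list did. The mean level of G0s2 was 93.2 CPM in f/f and 42.9 CPM in MKO livers, against 0.812 and 0.794 CPM for Cxcr2 of the same list. Which liver cells held the G0s2 RNA was not tested.

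In BMDMs 5 of the 9 tested genes of the mature neutrophil list were lower in MKO at an unadjusted p under 0.05 and 0 higher, with a median log2 change of -2.49, against 10.2% of all genes lower and 7.73% higher, and 3 to 5 were lower over the 6 fits that left out 1 library (3 without MKO replicate 1). The median was -1.02 without f/f replicate 3 and -1.32 with a block for replicate number. It was -0.55 without a filter (15 genes) and -0.37 in DESeq2 (14 genes). Of the untested genes, Cxcr1, G0s2 and Asprv1 had 2, 9 and 9 counts in f/f and 13, 19 and 17 in MKO. Mrgpra2b went the other way, with 14 and 0. Fpr1 and Fpr2, receptors for formylated peptides that macrophages also express, had 14590, 15831 and 42351 and 19534, 18784 and 40897 counts in f/f BMDMs and 2047, 1817 and 3462 and 2338, 2476 and 3588 in MKO BMDMs. Their log2 changes were -3.67 (SE 0.71, edgeR adjusted p = 0.218) and -3.54 (SE 0.58, edgeR adjusted p = 0.218), without overlap, and DESeq2 gave adjusted p of 6.12e-07 and 8.94e-09. Without f/f replicate 3 they were -2.56 and -2.69. Trem1 (-2.98), Trem3 (-2.62) and Mmp25 (-1.08) were the other genes. In the secondary and tertiary list Lcn2 (-6.88), Mmp9 (-1.90) and Hp (-1.46) were lower and Lyz2 (0.95) higher, and Lcn2 had 897, 12309 and 23391 counts in f/f against 176, 101 and 121 in MKO, with an edgeR adjusted p of 0.218 and a DESeq2 adjusted p of 3.25e-06. Without f/f replicate 3 its log2 change was -5.47. The transcription factor genes Gfi1 (-2.43) and Cebpa (1.96), and the NADPH oxidase genes Cybb (-0.95) and Ncf4 (-0.85), also had an unadjusted p under 0.05. Of these 13 genes DESeq2 called all but Trem1, Mmp25 and Cybb, against 6.73% of all genes. The 13 were picked by the edgeR test on the same counts, so these calls are no separate support.

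**Figure D5:**
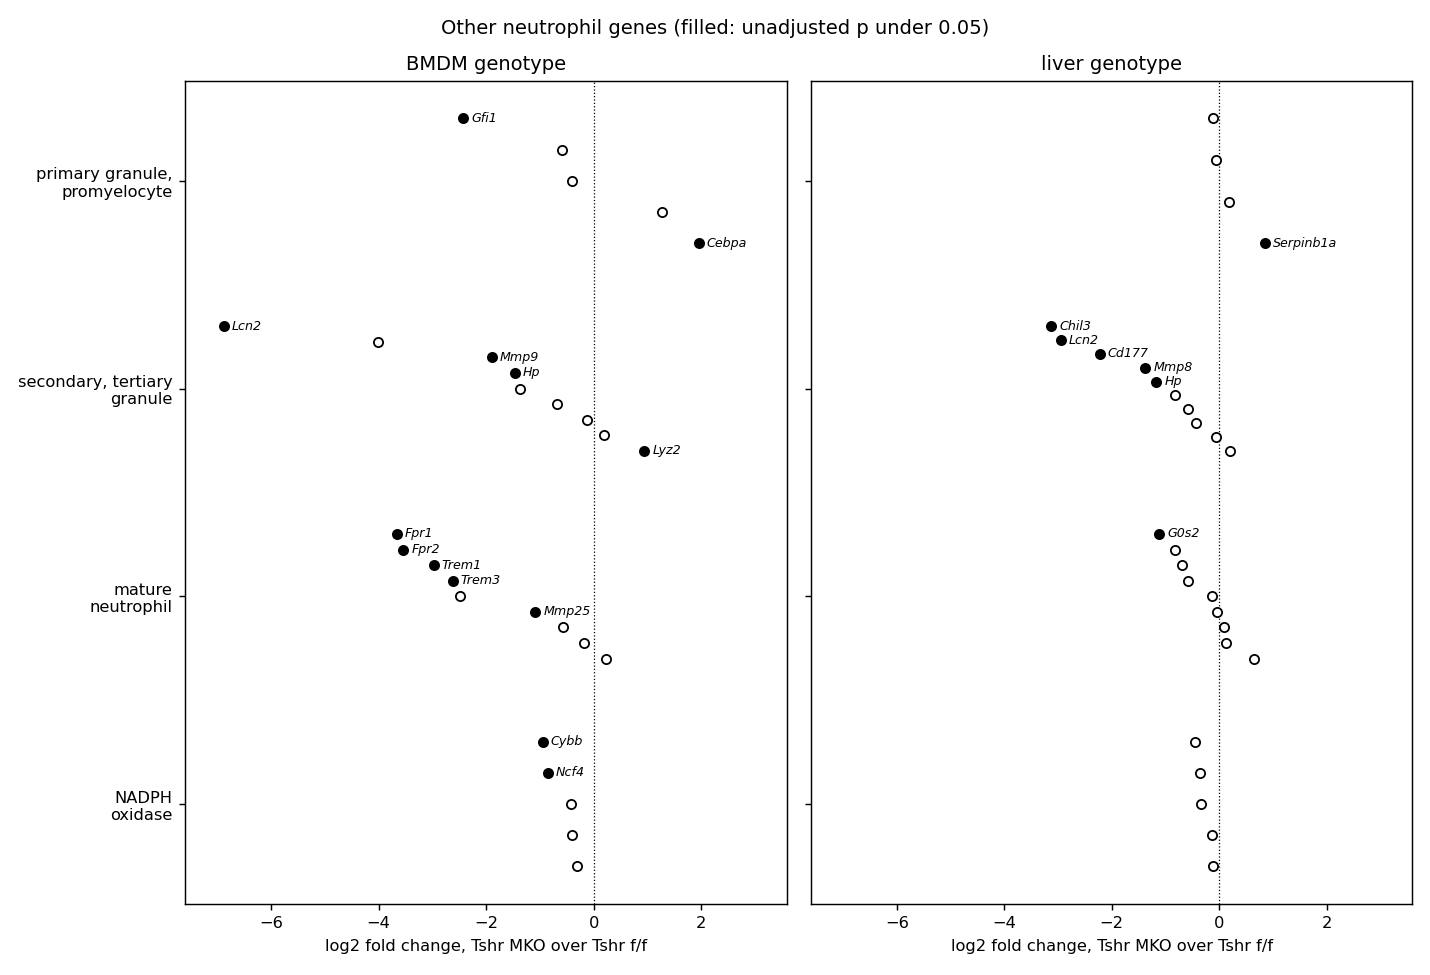
Log2 fold change (MKO over f/f) of every tested gene of 4 further neutrophil lists in BMDMs and in livers, with filled points for an unadjusted p under 0.05. In BMDMs Lcn2 (-6.88), Fpr1 (-3.67) and Fpr2 (-3.54) are lower, and in livers the named genes of the secondary and tertiary list (-3.13 to -1.17) are lower.

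Markers of other cells that a bone marrow culture can hold were higher or lower by list. Of 4 monocyte genes, Ly6c2 (-2.69) and Plac8 (-1.35) were lower and Ccr2 (1.65) was higher in MKO BMDMs at an unadjusted p under 0.05. Cx3cr1 had a log2 change of 1.71 (SE 0.96, edgeR adjusted p = 0.381). The summed level of the list was 256 to 970 CPM in f/f and 138 to 232 CPM in MKO. Ly6c2 held the largest part of it, with means of 488 and 75.6 CPM. The eosinophil gene Siglecf was higher (1.81). The eosinophil list summed to at most 1.33 CPM in f/f and at least 2.03 CPM in MKO, nearly all of it from Siglecf. The other genes of that list had means of 0.0642 CPM (Epx in MKO) or less, with Ear6 at 0. Of the genes shared by liver resident and other macrophages, Timd4 (-2.70) and Marco (-2.17) were lower at an unadjusted p under 0.05 and Vsig4 had a log2 change of 1.07 (SE 0.84, edgeR adjusted p = 0.509), with sums of 194 to 443 and 42.1 to 109 CPM and with Clec4f at 0. None of the general macrophage (4214 to 5056 and 4837 to 5364 CPM), platelet, T cell, B cell, dendritic cell, basophil and mast cell or progenitor markers passed that limit. The part of these cells in the values of the neutrophil genes was not tested.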

How the data were processed

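The authors deposited 1 table of raw counts of reads per gene for 12 strand-specific TruSeq libraries. The submitters' processing notes list FastQC 0.11.2, STAR, StringTie and mm10, and how they were combined is not given in the sources used here. Counts were tested as deposited with edgeR 4.0.16 in R 4.3.3 (TMM factors, filterByExpr, robust quasi-likelihood, Benjamini-Hochberg adjustment over all genes tested), per tissue for genotype and over all 12 libraries with 4 groups for tissue and for the interaction. DESeq2 1.42.0, other scalings and filters, a block for replicate number, the first letter of the sample code as a covariate, and leaving out each library were alternatives. The scripts were tested on simulated data. Likeness was the mean absolute difference from the members' median row-centred log2 CPM profile (prior count of 2), with the 5 nearest genes per tissue named. Whether the counting used strand is not given in the sources used here. Libraries holding 28962878 to 40954211 counts set the precision, and nothing in the labels says more about how replicates were separated than separate numbers, so p-values measure the spread between these libraries. The 10 genes are named in full, other listed genes by counts and by name where the unadjusted p was under 0.05, and levels of some listed genes were added after their values were seen. The members and lists were chosen with earlier results of these data known. Positions are from GENCODE M21 and promoters from RefSeq (GRCm38.p6), which matched all 10 genes.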

Additional observations from a re-analysis of the deposited data

Results flagged for a closer look

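Ccr2, a chemokine receptor gene of monocytes and 1 of the marker genes listed, moved in opposite directions in the 2 tissues, with no overlap in either. In livers the gap was narrow, with 1.13 CPM as the highest MKO level and 1.16 CPM as the lowest f/f level. Of all genes tested, 14.8% were higher in MKO BMDMs and 7.73% lower in MKO livers without overlap. Ccr2 was picked from the listed genes by this same separation of the groups. It had 849, 642 and 304 counts in f/f BMDMs and 1478, 1733 and 2699 in MKO BMDMs, and 86, 101 and 35 in f/f livers against 27, 31 and 32 in MKO livers. The difference of its log2 changes (BMDM minus liver) was 3.05 (SE 0.52), with an edgeR adjusted p of 0.12 over all genes and a DESeq2 adjusted p of 1.24e-05. None of the 10 neutrophil genes differed in this way.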

How the results depend on the processing

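In BMDMs the number of the 10 genes with an adjusted p under 0.05 was 0, but 3 in DESeq2 and 1 with all 12 libraries in 1 fit, and the interaction gave 0 but 3 in DESeq2. The number with an unadjusted p under 0.05 in BMDMs was 4, and 1 where a mean of at least 50 counts was required, which left 2 of the genes in the test; it was 2 to 4 when 1 library was left out, with 2 without f/f replicate 3 or without MKO replicate 1. In liver it was 2, and 1 without a filter, 0 with the first letter of the sample code as a covariate and 5 in DESeq2, and it was 0 to 6 when 1 library was left out: 0 without f/f replicate 1 or without any 1 of the MKO livers, 4 without f/f replicate 2 and 6 without f/f replicate 3. The cause of these moves was not tested. Replicate numbers are shared between the genotypes, but deviations of same-numbered libraries correlated at 0.0959, 0.0126 and 0.102 in BMDMs and at -0.0562, 0.217 and -0.0209 in livers, and nothing in the labels says that a number pairs animals. With the replicate block the counts at an unadjusted p under 0.05 were 3 in BMDMs, 0 in liver, 7 for tissue and 3 for the interaction, and those at an adjusted p under 0.05 were 0, 0, 7 and 0.

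Signs turned for Elane in liver, to 0.024 with the replicate block, 0.30 with the sample letter and 1.28 without f/f replicate 1 (range -1.52 to 1.28 when 1 library was left out), for Prtn3 in BMDMs, to -0.29 without MKO replicate 3 (range -0.29 to 3.63), and for Camp between tissues, to 0.011 with library totals and 0.48 without f/f liver replicate 1 (range -1.32 to 0.48). The liver median of the tested genes was -1.26 with the replicate block, -0.90 with the sample letter and -0.41 without f/f replicate 1, against -1.93, and -1.65 to -2.27 when another liver was left out. With library totals the median change of all genes was 0.17 in BMDMs and 0.13 for the interaction. All 12 fits that left out 1 library kept the 7 tissue differences past the threshold, with the highest adjusted p at 0.0431 for Prtn3. Low counts limit Ly6g, Elane, Ngp and Ltf in BMDMs most.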
